A study of Mus musculus with 24 samples.

Results

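The levels of 7 genes of the synthesis, transport and recycling of vitamin C (ascorbate) were followed in the livers of mice kept on 4 diets. They are Gulo, Rgn, Ugdh, Akr1a1, Slc23a1, Slc23a2 and Gsto1, and they make up 7 of the 13384 genes that could be tested on these arrays. All 7 were found by their symbol in the platform annotation, which gives them 13 probe sets, the groups of short probes that each measure 1 gene. The genes were chosen from these same arrays, with their levels over the 4 diets in view and Gulo as the leading gene, so the levels of the 7 genes are given as a description without a test. Gulo had its highest mean on the chimpanzee diet, Ugdh its lowest there, and Slc23a1 its highest on the pellet diet.

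Most mammals make vitamin C in the liver, from glucose by way of glucuronate. UGDH (UDP-glucose dehydrogenase) makes UDP-glucuronate, AKR1A1 (aldehyde reductase) reduces glucuronate to gulonate, RGN (regucalcin, a gluconolactonase) closes gulonate to its lactone, and GULO (gulonolactone oxidase) carries out the last step. The GULO gene is lost in humans and other apes, which take up vitamin C with food, while mice keep it. The carriers SLC23A1 and SLC23A2 bring ascorbate into cells together with sodium, and GSTO1, an omega class glutathione transferase, can reduce dehydroascorbate back to ascorbate.

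The study asked how human and chimpanzee foods change gene expression in a common host. Female NMR-1 laboratory mice, 8 weeks old at the start, received 1 of 4 diets for 2 weeks, with 6 mice per diet: the standard pellets on which they had grown up, a chimpanzee diet of fruit, vegetables and yogurt, a human cafeteria diet of cooked meals, or a human fast food diet. None of the mice carried an engineered allele or received another agent, and each array held the liver RNA of 1 mouse. The RNA was processed in 2 batches, each with 3 mice per diet, and littermates had been spread over the diets, although the labels link no mouse to its litter.

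Values are log2 expression levels, in which a difference of 1 is a doubling, and errors are SD over mice for a level and SE for a difference. A probe set counted as measured if it exceeded 3.147, the median over the whole table, on 6 or more of the 24 arrays. All 8 hepatocyte markers checked, Alb, Apoa1, Apob, Ttr, Cps1, Tat, Hnf4a and Cyp2e1, were measured, with no value below 9.21, and the adipocyte markers Adipoq and Plin1 were not above the filter. Pairs of arrays correlated between 0.925 and 0.996 and no arrays were identical. The 90th percentile of an array lay between 6.41 and 6.61 in batch 1 and between 5.66 and 6.34 in batch 2, so batch was a term in every comparison. As these are whole-liver samples, fewer cells of a type and less RNA per cell cannot be told apart.

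Ugdh is the member with the largest difference between diets, and its promoter is shown as the stretch of regulatory sequence at the entry of the pathway. The 250 bases before its start site lie on the minus strand at chr5:65435843-65436092 of GRCm38.p6 (RefSeq). Capitals mark matches on either strand to TGACNNNGC, the core of the antioxidant response element bound by NRF2, to GCGTG, the core of the xenobiotic response element bound by the aryl hydrocarbon receptor, and to the GC box GGGCGG.
Ugdh: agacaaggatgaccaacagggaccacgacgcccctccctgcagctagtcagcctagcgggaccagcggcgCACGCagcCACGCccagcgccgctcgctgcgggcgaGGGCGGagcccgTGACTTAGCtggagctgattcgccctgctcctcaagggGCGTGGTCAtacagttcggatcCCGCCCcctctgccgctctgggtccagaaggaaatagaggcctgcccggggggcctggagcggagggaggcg
The sequence held 2 matches to TGACNNNGC, which begin 132 and 94 bases before the start site, 3 to GCGTG and 2 to GGGCGG. The match at 94 bases overlaps a GCGTG. Of 32851 RefSeq promoter windows of the same length, 10.2% held at least 1 TGACNNNGC, 28.2% a GCGTG and 32.7% a GGGCGG. The windows of Akr1a1, Gsto1 and both start sites of Slc23a2 held no TGACNNNGC. Akr1a1 held no match to any of the 3, Gsto1 held 1 GGGCGG, and the windows of Slc23a2 held 1 GCGTG at one start site and 6 GGGCGG at the other. These matches describe the letters only, and no binding was measured.

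Gulo, which makes the enzyme of the last step, had 1 probe set. Its level on the chimpanzee diet ranged from 9.54 to 10.29, with a median of 10.18. On the cafeteria diet it ranged from 8.97 to 9.92 around 9.48, on the fast food diet from 8.84 to 9.72 around 9.44, and on the pellet diet from 9.06 to 9.66 around 9.42. Over both batches the chimpanzee group overlapped the others, because the level was lower in batch 2 on every diet. Within batch 1 the 3 chimpanzee mice, at 10.19 to 10.29, lay above all 9 other mice, of which the highest was a cafeteria mouse at 9.92. Within batch 2 the 3 chimpanzee mice, at 9.54 to 10.16, again lay above the other 9, of which the highest was a pellet mouse at 9.44.

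**Figure D1:**
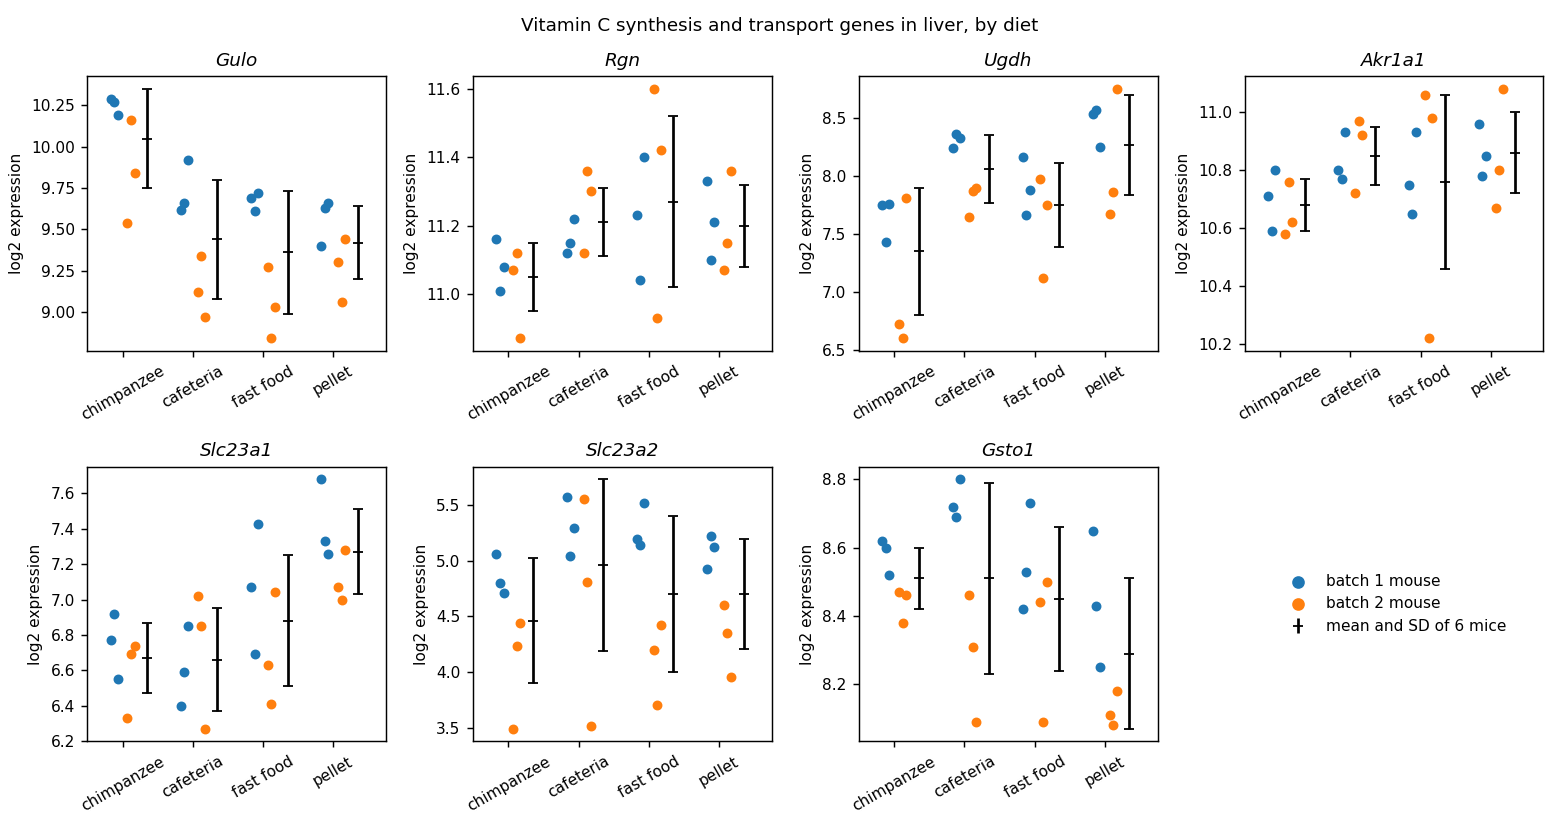
Log2 expression of the 7 genes (vertical axes, 1 probe set per gene, scales differ between panels) in the 24 mice by diet; blue points are batch 1 mice, orange points batch 2 mice, and the bars show the mean and SD of 6 mice. Gulo is highest on the chimpanzee diet within each batch (mean 10.05 over both), Ugdh is lowest there (7.35) and Slc23a1 is highest on the pellet diet (7.27).

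The means of Gulo were 10.05 ± 0.30 on the chimpanzee, 9.44 ± 0.36 on the cafeteria, 9.42 ± 0.22 on the pellet and 9.36 ± 0.37 on the fast food diet (SD, n = 6 each). The last 3 diets, neighbours in this order, differed by less than their spread. Both human diets together were lower than the chimpanzee diet by a difference of -0.65 ± 0.0903 (SE), or 1.57-fold. This difference was -0.55 in batch 1 and -0.75 in batch 2. The chimpanzee diet was above the pellet diet by 0.63 ± 0.106, or 1.55-fold, with 0.69 in batch 1 and 0.57 in batch 2. Between the human diets and the pellet diet Gulo differed by -0.02 ± 0.088, and the 2 batches had opposite signs (0.14 and -0.18).

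Ugdh, which supplies UDP-glucuronate to ascorbate synthesis and also to the conjugation of drugs and bilirubin, was lowest where Gulo was highest. On the chimpanzee diet it ranged from 6.60 to 7.81 with a median of 7.59, and on the fast food diet from 7.12 to 8.16 around 7.81. On the cafeteria diet it ranged from 7.65 to 8.36 around 8.07, and on the pellet diet from 7.67 to 8.75 around 8.39. In batch 1 the highest chimpanzee mouse, at 7.76, lay below every cafeteria and pellet mouse, while in batch 2 a chimpanzee mouse at 7.81 lay among the mice of the other diets and the other two chimpanzee mice were at 6.72 and 6.60.

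The means of Ugdh ran from 7.35 ± 0.55 (chimpanzee) through 7.75 ± 0.36 (fast food) and 8.06 ± 0.29 (cafeteria) to 8.27 ± 0.43 (pellet; SD, n = 6 each). Each pair of neighbours in this order differed by less than the larger SD of the pair. The ends of the order differed by -0.93 ± 0.187, 1.9-fold lower on the chimpanzee than on the pellet diet, with -0.80 in batch 1 and -1.05 in batch 2. Human diets lay above the chimpanzee diet by 0.56 ± 0.162 and below the pellet diet by -0.37 ± 0.15. Thus Gulo and Ugdh, the last enzyme and an early enzyme of the pathway, differed in opposite directions between the chimpanzee and the pellet diet.

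The enzymes between them varied less. Rgn ranged from 10.87 to 11.16 on the chimpanzee diet with a median of 11.08, from 11.12 to 11.36 around 11.19 on the cafeteria diet, from 10.93 to 11.60 around 11.32 on the fast food diet and from 11.07 to 11.36 around 11.18 on the pellet diet. All of these ranges overlapped with their neighbours. The means of Rgn were 11.05 ± 0.10, 11.21 ± 0.10, 11.27 ± 0.25 and 11.20 ± 0.12 in the same order of diets, and the human diets differed from the chimpanzee diet by 0.19 ± 0.0857.

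Akr1a1 had 4 probe sets, of which the one with the highest mean represents the gene. That probe set read 10.68 ± 0.09 on the chimpanzee, 10.76 ± 0.30 on the fast food, 10.85 ± 0.10 on the cafeteria and 10.86 ± 0.14 on the pellet diet, and the groups overlapped throughout. One fast food mouse of batch 2, at 10.22, was the lowest of all. Between the human and the chimpanzee diets the 4 probe sets differed by 0.11 to 0.16, and between the chimpanzee and the pellet diet by -0.18 to -0.12, so they had the same sign within each of these comparisons.

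Of the transporters, Slc23a1, the carrier of epithelia such as liver, intestine and kidney, was highest on the pellet diet. It ranged from 7.0 to 7.68 around a median of 7.27 on pellets, from 6.33 to 6.92 around 6.71 on the chimpanzee diet, from 6.27 to 7.02 around 6.72 on the cafeteria diet and from 6.41 to 7.43 around 6.87 on the fast food diet. All 6 pellet mice lay above all 6 chimpanzee mice. Of the mice on human diets, 3 of 6 on fast food and 1 of 6 on the cafeteria diet reached into the pellet range.

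The means of Slc23a1 were 7.27 ± 0.24 on pellets, 6.88 ± 0.37 on fast food, 6.67 ± 0.20 on the chimpanzee and 6.66 ± 0.29 on the cafeteria diet (SD, n = 6 each). The lower 3 differed by less than their spread. The chimpanzee diet was lower than pellets by a difference of -0.61 ± 0.147, or 1.52-fold, with -0.68 and -0.53 in batches 1 and 2. The human diets were lower than pellets by -0.50 ± 0.139, with -0.58 and -0.42, and the human and chimpanzee diets differed by 0.11 ± 0.139. A second probe set of Slc23a1 exceeded the filter level in 8 of the 24 arrays and read 3.27 ± 0.27 on pellets, 3.12 ± 0.14 on the cafeteria, 3.08 ± 0.16 on the chimpanzee and 3.05 ± 0.22 on the fast food diet, a difference of -0.19 ± 0.088 between the chimpanzee and the pellet diet.

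Slc23a2, the more widely expressed relative, varied most among mice of 1 diet. It ranged from 3.49 to 5.06 around 4.58 on the chimpanzee diet, from 3.51 to 5.57 around 5.17 on the cafeteria diet, from 3.70 to 5.52 around 4.78 on the fast food diet and from 3.95 to 5.22 around 4.76 on pellets, and all groups overlapped. The means were 4.46 ± 0.56, 4.96 ± 0.77, 4.70 ± 0.70 and 4.70 ± 0.49. Each pair of diets differed by less than the larger SD of the pair, and these SDs include the shift between batches. With batch as a term the largest difference was -0.51 ± 0.232, chimpanzee minus cafeteria diet. The human diets lay 0.37 ± 0.221 above the chimpanzee diet. A second probe set read between 3.33 and 3.36 on average on every diet.

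Gsto1, of the recycling arm, had means of 8.51 ± 0.09 on the chimpanzee, 8.51 ± 0.28 on the cafeteria, 8.45 ± 0.21 on the fast food and 8.29 ± 0.22 on the pellet diet, with ranges of 8.38 to 8.62, 8.09 to 8.80, 8.09 to 8.73 and 8.08 to 8.65. All of these ranges overlapped. Its 2 probe sets disagreed: the chimpanzee and pellet diets differed by 0.22 ± 0.0872 for the one with the higher mean and by -0.05 ± 0.0829 for the other.

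**Figure D2:**
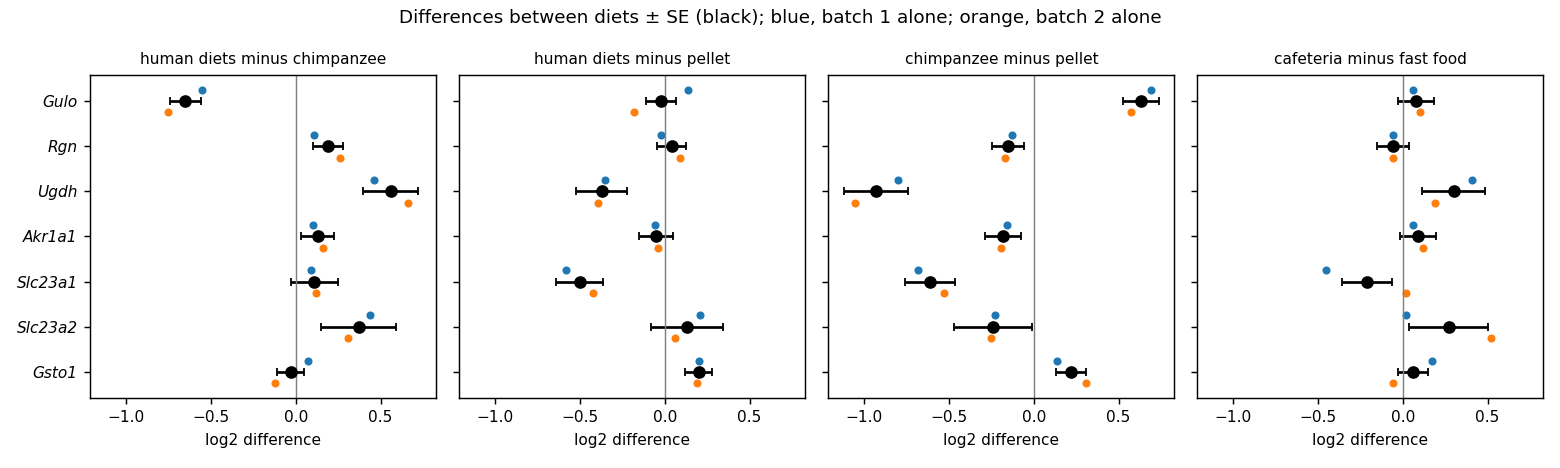
Log2 difference of each gene (horizontal axes) in 4 comparisons of diets; black points and bars are the difference and its SE over both batches, blue and orange points the difference in batch 1 and batch 2 alone. Gulo lies at -0.65 and 0.63 and Ugdh at 0.56 and -0.93 in the comparisons with the chimpanzee diet, with both batches on the same side of 0.

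The counts of the 7 genes that passed limma's test (adjusted over all genes, threshold 0.05) stand here beside the share of all genes, and nothing is read from them because the same values chose the genes. Over the 4 diets 3 of 7 passed (Gulo, Ugdh and Slc23a1), against 9.00% of all genes. Between the human diets and the chimpanzee diet 1 of 7 passed (Gulo), against 1.49%, and between the human diets and pellets 1 of 7 (Slc23a1), against 4.98%. Between the chimpanzee diet and pellets 3 of 7 passed (Gulo, Ugdh and Slc23a1), against 10.4%. Between the cafeteria and the fast food diet limma called 0 of 7, against 0.00747% of all genes. Of the 7, 0 had an unadjusted p under 0.05 and 0 passed by the procedure of the study's methods. That procedure passed a larger share of all genes than limma did, and for the unadjusted p no share of all genes is given. The comparisons with the chimpanzee diet share its 6 mice, and those with pellets share the 6 pellet mice. The median difference over the 7 genes was 0.13 between human and chimpanzee diets, -0.02 between human diets and pellets, -0.18 between the chimpanzee diet and pellets and 0.08 between the human diets, and the medians of all genes lay between -0.01 and 0.00. Slc23a1 passed between the human diets and pellets in 6 of the 18 fits that each left out 1 mouse.

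A measure of RNA quality moved with Gulo. The difference between the 3′ and 5′ beta-actin control probe sets, which grows as RNA is degraded or less completely copied, was 1.08 ± 0.15 on the chimpanzee diet, 0.91 ± 0.05 on the cafeteria, 0.80 ± 0.13 on the fast food and 0.75 ± 0.14 on the pellet diet (SD, n = 6 each). With it as a covariate, Gulo differed by -0.47 between human and chimpanzee diets and by 0.43 between the chimpanzee diet and pellets, and Ugdh by 0.52 and -0.57, with 0 of the 7 genes called by limma in either comparison or between the human diets and pellets, and 1 (Gulo) over the 4 diets. Slc23a1 then differed by -0.71 between the chimpanzee diet and pellets. In batch 1 the control difference was 0.88 to 1.06 in the chimpanzee mice and 0.61 to 0.99 in the others. In batch 2 it was 1.09 to 1.34 and 0.65 to 0.98, so diet and this measure cannot be told apart there. The part of RNA quality in these differences was not tested further.

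**Figure D3:**
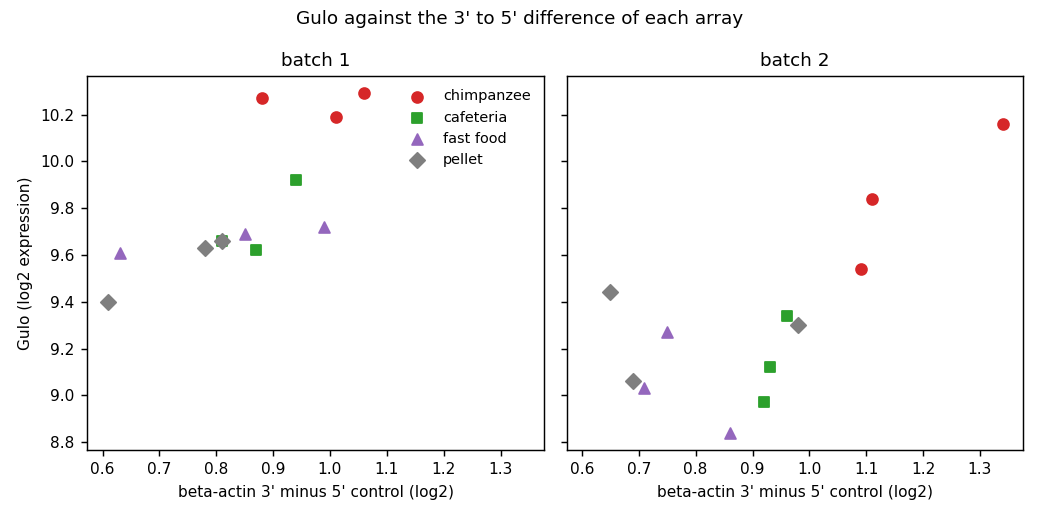
Gulo (log2 expression, vertical axis) against the 3′ minus 5′ difference of the beta-actin control probe sets (log2, horizontal axis) in the mice of batch 1 (left) and batch 2 (right), 1 point per mouse with colour and shape by diet. The chimpanzee mice are the highest in each panel and their control differences, 0.88 to 1.34, overlap those of the other diets (0.61 to 0.99) in batch 1 and lie above them in batch 2.

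Of the cell type markers, only Col3a1 passed limma's test between human and chimpanzee diets and only Hal between human diets and pellets. More of them passed between the chimpanzee diet and pellets. Of all genes, limma called 10.4% between the chimpanzee diet and pellets, 4.98% between human diets and pellets and 1.49% between human and chimpanzee diets. Of 6 Kupffer cell markers, 4 (Cd68, Clec4f, Csf1r and Vsig4) passed limma's test as lower on the chimpanzee diet than on pellets, where Ugdh and Slc23a1 were lower and Gulo higher. The summed level of the 6 markers ranged from 29.87 to 36.04 on the chimpanzee diet and from 34.23 to 38.54 on pellets, and all 6 were measured. Of 5 stellate cell markers Col3a1 was lower on the chimpanzee diet than on pellets and than on the human diets. Of the hepatocyte markers Hnf4a was higher on the chimpanzee diet than on pellets, and of the periportal ones Hal was lower than on pellets on the chimpanzee diet and on the human diets. Measured endothelial, biliary, lymphocyte and pericentral markers had no call by limma in any pair, and Krt7, Sds and Gls2 were not above the filter. The part of these cells in the results was not tested.

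The processing batch shifted several of the 7 genes. Batch 2 was lower than batch 1 by -0.86 ± 0.164 for Slc23a2, -0.48 ± 0.0748 for Gulo, -0.44 ± 0.132 for Ugdh, -0.28 ± 0.0616 for Gsto1 and -0.19 ± 0.104 for Slc23a1. Rgn and Akr1a1 differed by 0.03 ± 0.0668 and -0.01 ± 0.0754. The median of all genes differed by -0.12 between the batches, with quartiles of -0.43 and 0.21.

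Other genes of ascorbate and glucuronate metabolism were examined as a list of 43 genes, of which 36 were measured. Over the 4 diets 4 of the 36 passed limma's test, near the share of all genes (9.00%). Between the human and chimpanzee diets 2 were higher on the human diets and 0 lower (1.49% of all genes passed in either direction), and the same 2 were higher on the human diets than on pellets (4.98%). Between the chimpanzee diet and pellets 1 was higher and 3 were lower, again near the share of all genes (10.4%). Between cafeteria and fast food limma called 0 of 36, with 1 at an unadjusted p under 0.05. The medians over the 36 genes, 0.01, 0.01, 0.04 and -0.03 in these comparisons, lay near those of all genes.

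Among 6 measured genes that supply or use glucuronate, Dcxr, the xylulose reductase of the pathway that leads gulonate away from ascorbate, rose on the human diets. Its mean was 9.09 ± 0.26 on the cafeteria and 8.99 ± 0.18 on the fast food diet, against 8.61 ± 0.26 on the chimpanzee diet and 8.58 ± 0.16 on pellets. The human diets exceeded the chimpanzee diet by 0.43 ± 0.0987 (limma, adjusted p = 0.0379), a call kept in 8 of the 18 fits that left out 1 mouse, and exceeded pellets by 0.46 ± 0.0957 (limma, adjusted p = 0.00588), kept in all 18. With the beta-actin covariate, where 5 of all 13384 genes passed, the first of these calls was lost.

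Of 4 measured carriers that can take up dehydroascorbate, the glucose transporter Slc2a1 rose on the human diets. It read 4.38 ± 0.21 on the cafeteria, 4.37 ± 0.26 on the fast food, 3.78 ± 0.21 on the chimpanzee and 3.89 ± 0.27 on the pellet diet. All 12 mice on human diets, from 4.04 upwards, lay just above the chimpanzee maximum of 4.01. The pellet mice, which reached 4.12, overlapped those on human diets. The difference was 0.59 ± 0.11 against the chimpanzee diet (limma, adjusted p = 0.0105) and 0.48 ± 0.117 against pellets (limma, adjusted p = 0.0171). The call against the chimpanzee diet was lost with the beta-actin covariate, where 5 of all 13384 genes passed.

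Of 9 measured recycling genes, 3 fell on the chimpanzee diet against pellets, where 10.4% of all genes passed in either direction. Gsr, the glutathione reductase, read 6.65 ± 0.14 against 7.02 ± 0.19, a difference of -0.37 ± 0.0962 (limma, adjusted p = 0.0132). Cyb5r3, the cytochrome b5 reductase that can reduce the ascorbate radical, read 9.85 ± 0.06 against 10.30 ± 0.17, a difference of -0.45 ± 0.126 (limma, adjusted p = 0.0226), and the mice of the 2 diets did not overlap (9.77 to 9.91 against 10.08 to 10.49). Cyb561, an ascorbate-dependent electron carrier, differed by -0.38 ± 0.109 (limma, adjusted p = 0.0256), with means of 2.91 and 3.29 around the filter level. With the beta-actin covariate 0 of the 36 genes passed in this comparison.

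Of 17 measured enzymes that use ascorbate, 1 passed between the chimpanzee diet and pellets, where 10.4% of all genes passed in either direction. P4ha1, a subunit of collagen prolyl hydroxylase, read 4.20 ± 0.57 on the chimpanzee diet against 3.61 ± 0.18, a difference of 0.59 ± 0.145 (limma, adjusted p = 0.00943). The mice of the 2 diets overlapped (3.48 to 4.75 against 3.40 to 3.86), and P4ha1 did not pass over the 4 diets. The other 16, among them the collagen lysyl hydroxylases Plod1 and Plod3, the HIF prolyl hydroxylases Egln1, Egln2 and Egln3 and the DNA dioxygenases Tet1, Tet2 and Tet3, did not pass in any of the 5 fits.

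**Figure D4:**
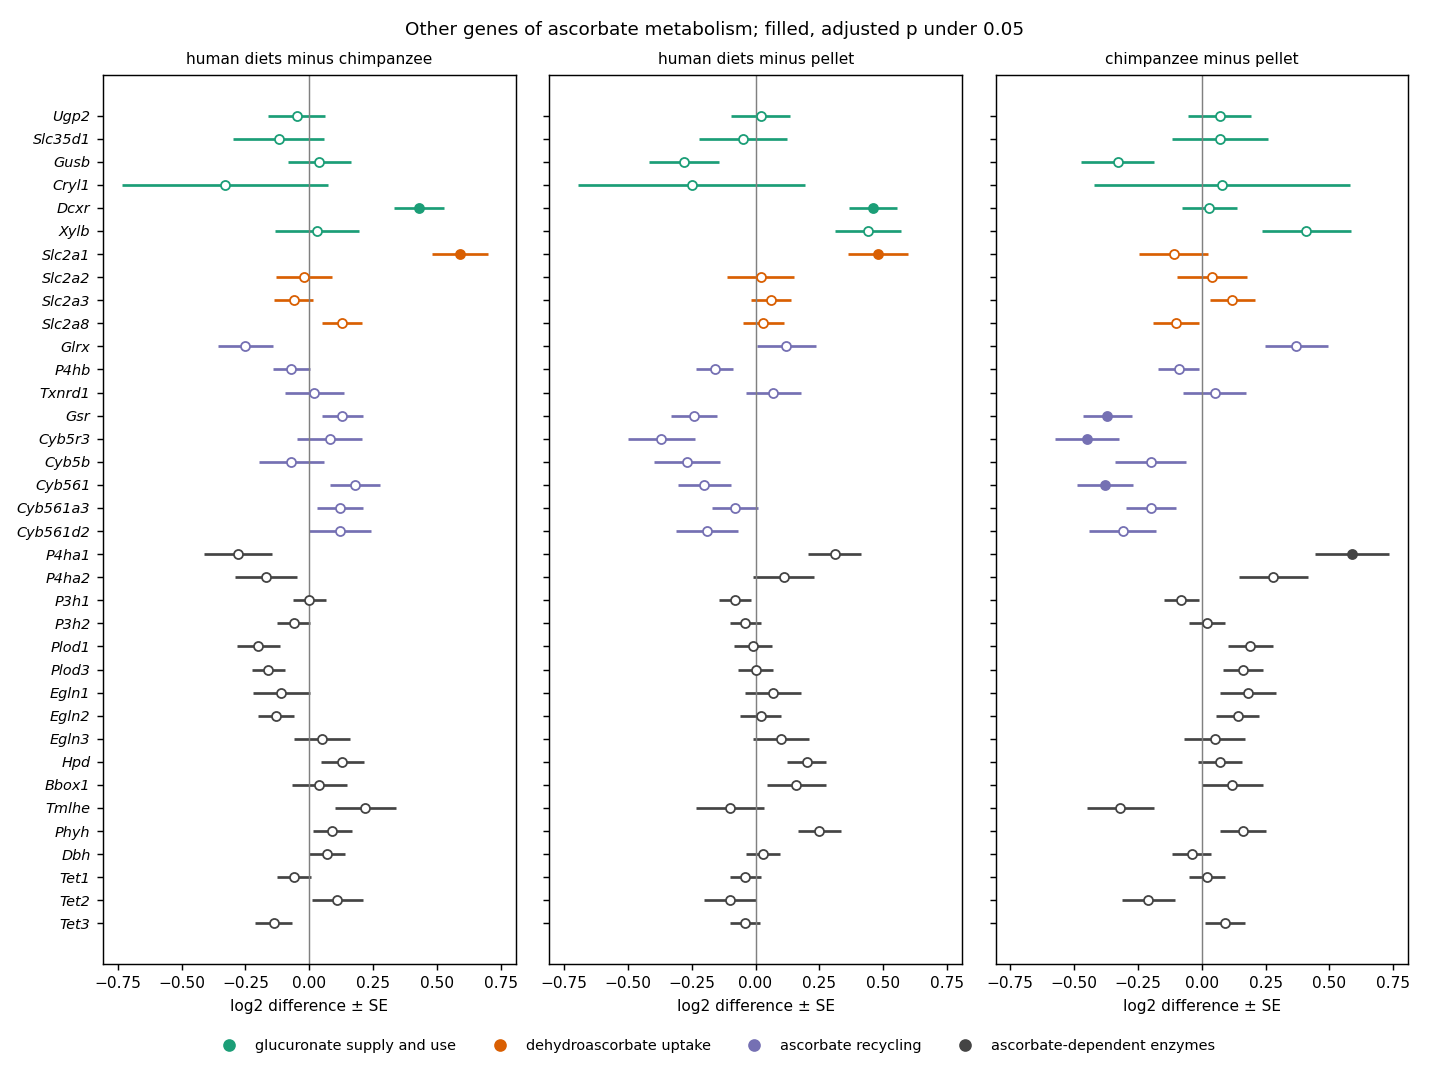
Log2 difference ± SE (horizontal axes) of the 36 other measured genes of ascorbate metabolism in 3 comparisons, coloured by role; filled points passed limma's test. Dcxr and Slc2a1 are filled on the right of 0 in both comparisons with human diets (0.43 and 0.59 against the chimpanzee diet), and Gsr, Cyb5r3 and Cyb561 on the left between the chimpanzee diet and pellets.

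The genes whose levels followed Gulo most closely over the 24 arrays, after the mean of each batch was removed, were Rdh9 (Pearson r = 0.83), Fn1 (0.82), Dpp8 (0.82), H6pd (0.81) and Apoa4 (0.79). Rdh9 belongs to the retinol dehydrogenases, Fn1 encodes fibronectin, Dpp8 a dipeptidyl peptidase, H6pd the hexose-6-phosphate dehydrogenase of the endoplasmic reticulum and Apoa4 an apolipoprotein. Apoa4 read 10.81 ± 0.23 on the chimpanzee diet and 9.45 to 9.78 on average on the others. The most opposite genes were Rogdi (-0.79), Cryzl2 (-0.78) and Cyp2b10 (-0.77), a cytochrome P450 induced by foreign compounds, which read 4.40 ± 0.12 on the chimpanzee diet and 6.65 to 7.07 on average on the others. Among the 7 genes, r with Gulo was -0.44 for Ugdh, -0.28 for Rgn, -0.18 for Slc23a1, -0.09 for Slc23a2, -0.08 for Akr1a1 and 0.29 for Gsto1. These values share diets, arrays and RNA quality, and r between Gulo and the beta-actin control difference was 0.73 on the same scale.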

How the data were processed

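The table deposited by the authors holds log2 expression levels, with a column for each mouse, from Affymetrix mouse genome arrays. The study's methods name rma (robust multichip average) in the affy package, which corrects background, normalizes by quantiles and summarizes probes. In the deposited values the 90th percentile of an array ran from 5.66 to 6.34 within batch 2 alone. Joint quantile normalization would leave the arrays nearly alike, so these values do not show that step. For the affy version, and for any other arrays normalized together with these, the sources used here give nothing. Values ranged from 1.90 to 13.01. The number of arrays limits the precision. Labels name separate mice, with diet, batch and replicate number.

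Of 45101 probe sets, 64 controls were set aside, and 34945 of the others had 1 gene symbol, 932 several and 9160 none. Named probe sets that exceeded the overall median on 6 or more arrays were kept (21920), and the one of highest mean represented each gene (13384 genes). Symbols of the 13 probe sets described matched the RefSeq gene table by Entrez identifier. The fits used limma 3.58.1 under R 4.3.3 (two-sided moderated test, batch as a term, Benjamini-Hochberg over all genes, threshold 0.05). Both human diets were pooled in fits of 18 mice, and pairs of diets were contrasts within the fit of 24. The scripts were tested on simulated data.

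The 7 genes, the wider list, the markers and the motifs were chosen with earlier results of these data, or the promoter sequences, known. From the wider list the text names genes that passed in at least 1 of 5 fits, up to 4 per role. Genes like Gulo are those of highest and lowest r, clone names and predicted genes left out. Rgn, Gulo and Slc23a1 promoters were not analysed here. The labels do not say whether mice of the same replicate number belong together, and the main fits did not pair them. Alternatives covered the batch term, filters, probe sets, normalization, array weights, 2 quality covariates, an intensity trend, the procedure of the study's methods (unadjusted p under 0.01, without probe sets of interaction p under 0.05) and leaving out each mouse or the 4 arrays of lowest 90th percentile. Detection p-values were not used.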

Additional observations from a re-analysis of the deposited data

Results flagged for a closer look

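Slc23a2 in the cafeteria mouse of batch 2, replicate 3, read 3.51, while the nearest of the other 5 cafeteria mice read 4.81 and the far end of the group 5.57. The gap took up 0.63 of the range of the group, above Dixon's 95% critical value for 6 samples. The 6 values come from 2 batches, which differed by -0.86 ± 0.164 for Slc23a2, and Dixon's test takes no account of batch. The array of this mouse also had the lowest 90th percentile of all, at 5.66. The group was 1 of 28 tested, and chance marks about 1 in 20.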

How the results depend on the processing

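Counts of the 7 genes called were 3 over the 4 diets, 1 between human and chimpanzee diets, 1 between human diets and pellets, 3 between the chimpanzee diet and pellets and 0 between the human diets. The last count was 0 under every alternative run. With no batch term the first 3 counts became 0, 0 and 0. Between the chimpanzee diet and pellets the count then stayed 3, although fewer of all genes passed there as well. In batch 2 alone, with 12 mice or fewer, the first 4 counts were 0, and in batch 1 alone that against pellets for the human diets was 0. With the beta-actin covariate the first 4 counts were 1 (Gulo), 0, 0 and 0. Without the 4 arrays of lowest 90th percentile Ugdh was not called over the 4 diets, which left 2 (Gulo and Slc23a1). Between human and chimpanzee diets array weights and the methods' procedure gave 2 (Gulo and Ugdh). Between human diets and pellets the fit without a filter gave 0, and quantile normalization, array weights, the 90th percentile covariate and leaving out the 4 arrays of lowest 90th percentile each gave 2 (Slc23a1 and Gsto1). In the paired fit with a replicate block this count was 0, and the block left the other counts of the 7 genes as they were. Mice with the same batch and replicate number deviated with correlations of -0.63 to 0.41 (median 0.01), and 6 of 24 correlated best with their own number. Where a count above fell, fewer of all genes passed too, except without the 4 arrays of lowest 90th percentile, where more passed. Where a count above rose, more of all genes passed.

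Leaving out 1 mouse at a time gave 2 to 3 over the 4 diets (Slc23a1 lost without pellet batch 1 replicate 1), 1 to 2 between human and chimpanzee diets (Ugdh gained without chimpanzee batch 2 replicate 3 or fast food batch 2 replicate 2), 0 to 1 between human diets and pellets, and 3 in every fit between the chimpanzee diet and pellets. Slc23a1 between human diets and pellets was lost in 12 of 18 fits: without any of the 6 pellet mice, any cafeteria mouse of batch 1, or fast food batch 1 replicate 2 or batch 2 replicates 1 or 2. No called difference of the 7 genes changed its sign under any alternative, and Gulo lay between -0.75 and -0.47 for human minus chimpanzee diets and between 0.43 and 0.70 for chimpanzee minus pellet.

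For the wider list the alternatives were chosen after seeing the data. The counts 4, 2, 2 and 4 in the first 4 comparisons became 2, 1, 2 and 1 with no batch term, 0 in each in batch 2 alone, and 2, 0, 2 and 0 with the beta-actin covariate. Batch 1 alone gave 1 in both comparisons of human diets. The replicate block gave 1 (Slc2a1) and 4 there. Cyclic loess gave 9 over the 4 diets, 6 between human diets and pellets and 10 between the chimpanzee diet and pellets, quantile normalization 9, 8 and 9, array weights 11, 6 and 7, and the 90th percentile covariate 8, 4 and 7. Leaving out the 4 arrays of lowest 90th percentile gave 5 between human diets and pellets. In each of these comparisons cyclic loess, quantile normalization, array weights, the 90th percentile covariate and leaving out the 4 arrays also raised the calls among all genes. Fewer of all genes passed with no batch term, in either batch alone and with the beta-actin covariate. Fewer also passed with the replicate block, although it raised the count between human diets and pellets. Whether the wider list moved more than all genes was not tested. Leaving out 1 mouse gave 2 to 6, 1 to 2, 1 to 3 and 2 to 6 in the 4 comparisons. Dcxr between human and chimpanzee diets was lost without chimpanzee batch 1 replicates 2 or 3, any chimpanzee mouse of batch 2, fast food replicates 1 or 3 of either batch, or cafeteria batch 1 replicate 2. Over the 4 diets Gsr was lost in 18 of 24 fits, all but those without fast food batch 2 replicates 1 or 2, cafeteria batch 1 replicate 3 or batch 2 replicates 1 or 3, or pellet batch 1 replicate 2, and Cyb5r3 in 5 of 24 (cafeteria batch 1 replicate 2, any pellet mouse of batch 1, or pellet batch 2 replicate 3). Slc2a1 between human diets and pellets was lost without pellet replicate 2 of either batch. Between the chimpanzee diet and pellets Cyb5r3 was lost without chimpanzee batch 1 replicate 1, pellet batch 1 replicates 2 or 3 or pellet batch 2 replicate 3, and Cyb561 without chimpanzee batch 1 replicate 2 or pellet batch 1 replicate 3. The cause was not tested. Scaling moved the median of all genes by at most 0.020.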

Other observations

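After the mean of each diet within each batch was removed, so that only differences between mice of 1 diet and batch remained, the genes closest to Gulo over the 24 arrays were Car5a (Pearson r = 0.87), the mitochondrial carbonic anhydrase, Oaf (0.83), Pafah2 (0.81), Xist (0.81) and Hpn (0.81), which encodes hepsin. On this scale the other 6 genes of ascorbate metabolism had r between 0.17 for Gsto1 and 0.50 for Akr1a1 with Gulo, where Ugdh, of opposite order over the diets, had 0.25. The 90th percentile of the array and the beta-actin control difference each had r = 0.38 with Gulo. These values are a description over arrays that share quality differences.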
